A study of Mus musculus with 8 samples.

Results

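The non-CD8 leukocytes of B16-OVA tumors were compared between mice that had received PD1d/IL-33 ACT and mice that had received PD1d/IL-2v ACT, both 12 days after transfer. Members were taken cell by cell from the single-cell libraries of the 2 conditions, which shared 1 sequencing run. A barcode was kept with 500 to 6000 detected genes, 2000 to 40000 unique molecular identifiers (UMIs, each counting 1 captured RNA molecule) and less than 10% of UMIs in mitochondrial genes, and counted as non-CD8 when it held no UMI of Cd8a or Cd8b1. Of 3700 barcodes in both libraries 2801 passed, and 1759 of these were non-CD8 cells, 386 after PD1d/IL-33 ACT and 1373 after PD1d/IL-2v ACT. The whole series holds 15700 barcodes in 8 libraries, with 7446 non-CD8 cells among 13046 that passed.

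All mice were C57BL/6 with subcutaneous B16-OVA tumors, a melanoma line that carries the ovalbumin antigen, and the transferred cells were OT1 T cells, CD8+ cells whose receptor recognizes ovalbumin. In both conditions the OT1 cells secreted PD1d, the ectodomain of PD-1 fused to an antibody Fc part that acts as a decoy for the ligands of PD-1. In the first condition they also secreted IL-33 and in the second IL-2v, a variant of IL-2 that binds the IL-2 receptor beta and gamma chains but not CD25. Tumors of 5 mice were pooled per condition, CD45+ cells were sorted with enrichment for CD8+ TILs, and 1 library was made per condition. No value below therefore has a replicate check, no test between conditions was possible, and the intervals (95%, exact Poisson for expression and exact Clopper-Pearson for shares) cover counting error only.

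IL-33 is an alarmin of the IL-1 family that signals through ST2, the product of Il1rl1, on type 2 innate lymphoid cells, type 2 helper T cells, a subset of regulatory T cells and mast cells, which respond with IL-13, IL-5 and amphiregulin. IL-2 acts through the beta and gamma chains on NK cells and CD8+ T cells, and regulatory T cells, which carry CD25, are the cells most sensitive to the natural cytokine. Per the study's methods the transgenes were codon optimized, and whether their reads reached the endogenous genes was not tested. Il33 had 0 UMIs in the non-CD8 cells of either library. Il2 had 38 UMIs in 5 cells after PD1d/IL-33 ACT and 26 in 15 cells after PD1d/IL-2v ACT.

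The 2 libraries differed in quality, and this bears on every comparison. PD1d/IL-33 ACT gave 4810085 UMIs in 1500 barcodes, of which 51.2% passed, and PD1d/IL-2v ACT 17343794 UMIs in 2200 barcodes, of which 92.4% passed. Of 732 barcodes that failed after PD1d/IL-33 ACT, 715 had under 2000 UMIs. Non-CD8 cells had a median of 4349.5 UMIs and 1613.5 genes after PD1d/IL-33 ACT and of 6430.0 UMIs and 2068.0 genes after PD1d/IL-2v ACT. One barcode sequence occurred in both libraries, and 0 among the non-CD8 cells. Because deeper cells show a marker more readily, shares were also computed after each cell had been thinned to 2000 UMIs.

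Composition was read from marker gates. Myeloid cells (at least 5 UMIs of Lyz2, lysozyme, and none of Cd3e) made up 33 of 386 non-CD8 cells, or 8.55% (5.96 to 11.8), after PD1d/IL-33 ACT and 298 of 1373, or 21.7% (19.5 to 24.0), after PD1d/IL-2v ACT, a ratio of 0.394 (0.280 to 0.554). CD4 T cells (at least 1 UMI each of Cd4 and Cd3e) made up 74 cells, or 19.2% (15.4 to 23.5), against 174 cells, or 12.7% (11.0 to 14.5), a ratio of 1.51 (1.18 to 1.94). Since CD8 cells took different shares of the libraries, the CD4 T ratio fell to 1.13 when all passing cells were the denominator (9.64% against 8.56%).

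Neutrophils (at least 10 UMIs of S100a8 and S100a9 together and 2 or more of 5 neutrophil markers) were not detected after PD1d/IL-33 ACT. This gate held 0 of 386 cells, which allows a share of up to 0.777%, against 81 of 1373 cells, or 5.90% (4.71 to 7.28), after PD1d/IL-2v ACT. Neutrophils hold little RNA and could be lost at the limit of 2000 UMIs, so the count was repeated on non-CD8 barcodes of at least 500 UMIs, where it was 0 of 550 against 88 of 1403. The recount still left out barcodes under 500 UMIs and those past the mitochondrial limit, so it covers only part of the barcodes lost to low depth. The 732 barcodes that failed after PD1d/IL-33 ACT had a median of 700.0 UMIs. Neutrophils among the barcodes left out would not have been counted. The 81 gate cells after PD1d/IL-2v ACT had a median of 810.0 genes and 1.82% of UMIs in ribosomal protein genes.

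Group 2 innate lymphoid cells (ILC2, gated by at least 1 UMI each of Il1rl1 and Gata3 and none of Cd3e) went the other way. There were 9 after PD1d/IL-33 ACT, or 2.33% (1.07 to 4.38), and 1 after PD1d/IL-2v ACT, or 0.0728% (0.00184 to 0.405). With the few cells behind it, the ratio of 32.0 had an interval of 4.07 to 252. The gate uses Il1rl1, which was itself found in more T cells after PD1d/IL-33 ACT. It had a UMI in 31.1% against 12.6% of CD4 T cells and in 12.5% against 1.64% of T cells without a Cd4 UMI. Whether more Il1rl1 per cell added to the ILC2 count was not tested, and no gate without Il1rl1 was tried. Mast cells or basophils and eosinophils, the other cells of type 2 responses, were at 0 in both libraries. Of 9 ILC2 gate cells, 3 carried UMIs of 2 or more T cell markers, and whether these were T cells without a detected Cd3e UMI was not tested.

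Dendritic cells were few in both libraries. A gate meant for type 1 conventional dendritic cells (2 or more of Xcr1, Clec9a, Wdfy4 and Naaa and no Cd3e) held 14 cells (3.63%) against 57 (4.15%), a ratio of 0.874 (0.492 to 1.55) that turned to 2.85 (1.13 to 7.16) after thinning. The name did not hold for the second library, where 55 of the 57 cells carried 2 or more monocyte or macrophage markers and 22 carried 2 or more conventional dendritic cell markers, against 8 and 11 of 14 after PD1d/IL-33 ACT, so these cells are called by the gate's genes. Cd209a-positive dendritic cells were 8 against 16, mature dendritic cells 2 against 13, B cells 2 against 5 and plasmacytoid dendritic cells 2 against 1, and every interval of these 4 ratios included 1. T cells with a UMI of Cd3e but none of Cd4 were 80 (20.7%) against 244 (17.8%). They can include CD8+ cells whose Cd8a and Cd8b1, and CD4+ cells whose Cd4, went undetected.

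**Figure D1:**
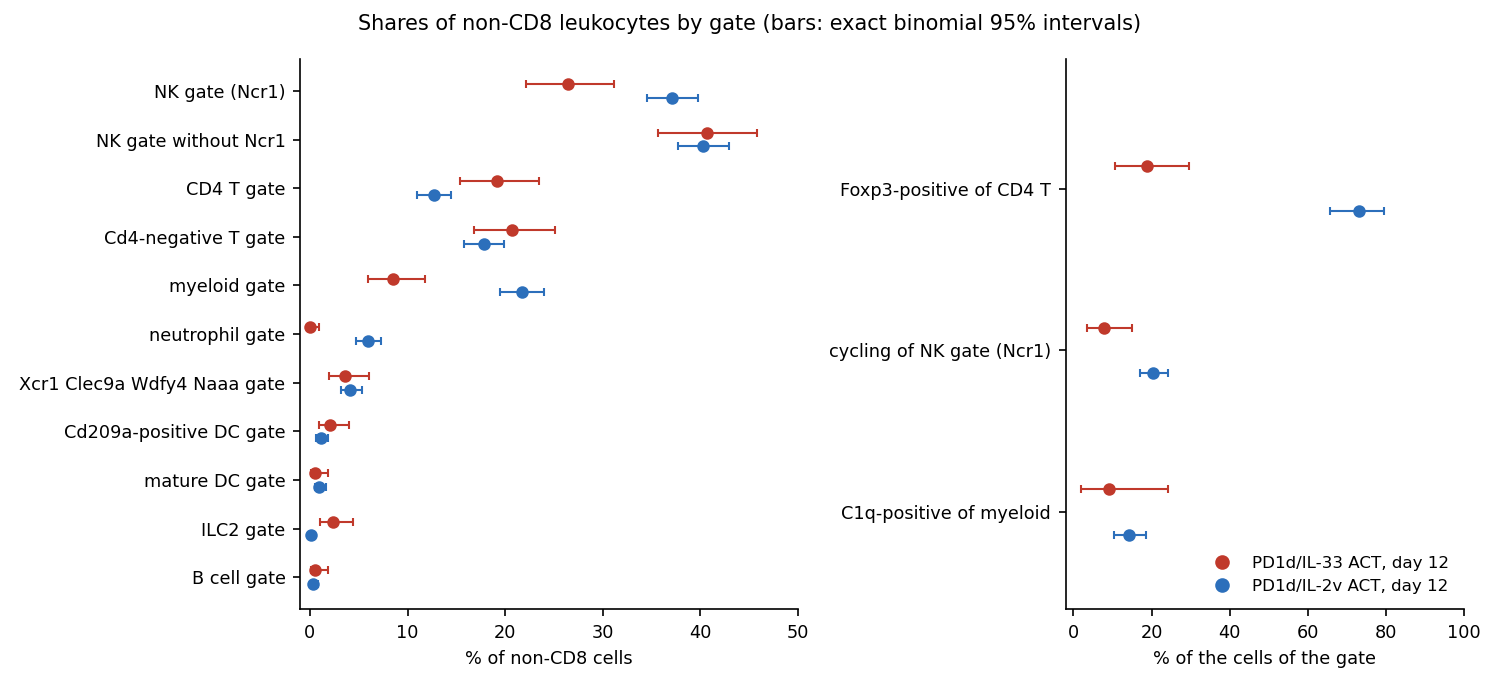
Shares of non-CD8 cells in each gate (left) and shares of 3 subsets within their gate (right), in percent, for PD1d/IL-33 ACT (red) and PD1d/IL-2v ACT (blue) at day 12. Bars are exact binomial 95% intervals. The intervals do not overlap for NK cells gated by Ncr1 or for CD4 T, myeloid, ILC2, neutrophil, Foxp3-positive and cycling NK cells, with the lower share after PD1d/IL-33 ACT in all of these but CD4 T cells and ILC2.

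The share of NK cells among non-CD8 cells depended on the gate. Non-CD8 cells were 50.3% of passing cells after PD1d/IL-33 ACT and 67.5% after PD1d/IL-2v ACT. Ratios over all passing cells are therefore lower than those given here, and for the second gate below that ratio was not computed. NK cells gated by Ncr1, which encodes the activating receptor NKp46, with no UMI of Cd3e, were 102 of 386 cells, or 26.4% (22.1 to 31.1), after PD1d/IL-33 ACT and 509 of 1373, or 37.1% (34.5 to 39.7), after PD1d/IL-2v ACT, a ratio of 0.713 (0.595 to 0.854). However, 71 non-CD8 cells (18.4%) after PD1d/IL-33 ACT fell in no gate at all, against 68 (4.95%), and most of them carried other NK genes, for example Klre1 in 50 of 71 cells. With a gate of 2 or more of Klrb1c, Klre1, Klra8, Klrd1, Eomes and Txk, no Cd3e and under 5 UMIs of Lyz2, NK cells made up 157 of 386 cells, or 40.7% (35.7 to 45.8), and 553 of 1373, or 40.3% (37.7 to 42.9), and the ratio was 1.01 (0.881 to 1.16).

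Ncr1 itself was lower in these cells. It had a UMI in 64.3% of the 157 cells after PD1d/IL-33 ACT and in 91.3% of the 553 cells after PD1d/IL-2v ACT, and its level was 364 CPM (321 to 411) against 750 CPM (724 to 777), where CPM are the UMIs of a gene summed over the cells of a gate and scaled to 1000000 UMIs. The log2 ratio, taken here and below after 10 CPM had been added to both values, was -1.02 (-1.21 to -0.85). Among the other libraries, those made after ACT with OT1 cells secreting both cytokines (PD1d/IL-2v/IL-33, called combined ACT below) had 207, 200 and 707 CPM of Ncr1 in this gate at days 5, 12 and 26, and those after untransduced ACT or without treatment had 656 to 821 CPM. The libraries with OT1 cells secreting IL-33 at days 5 and 12 thus had the 3 lowest levels of the 8.

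Type 2 cytokines were almost absent from one library and concentrated in few cells of the other. Il13 and Il5 lie with Il4 in the type 2 cytokine locus of chromosome 11 (Il4 at chr11:53612460-53618665, Il13 at chr11:53631323-53634702 and Il5 at chr11:53720794-53725103, RefSeq on GRCm38.p6). Il13, which encodes a cytokine that drives mucus production and alternative activation of macrophages, had 574 UMIs in 21 non-CD8 cells after PD1d/IL-33 ACT and 42 UMIs in 5 cells after PD1d/IL-2v ACT. Il5, the growth factor of eosinophils, had 270 UMIs against 5, and Il4, which drives type 2 helper differentiation, 52 against 13.

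The 9 ILC2 gate cells held 313 of 574 Il13 UMIs and 162 of 270 Il5 UMIs of the 386 non-CD8 cells after PD1d/IL-33 ACT. Of the 9 cells 7 had Il13, with a median of 12.0 UMIs and a maximum of 101, and 7 had Il5. The single ILC2 gate cell after PD1d/IL-2v ACT had 31 UMIs of Il13 and 2 of Il5. CD4 T cells held a further 35.5% of the Il13 UMIs and 17.4% of the Il5 UMIs, all in Foxp3-negative cells, and NK and myeloid cells together held 1 UMI of Il13 and 0 of Il5.

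Areg, which encodes the epidermal growth factor receptor ligand amphiregulin, had similar totals but different sources. After PD1d/IL-33 ACT 1183 UMIs were counted, 48.2% in ILC2 gate cells and 12.3% in Foxp3-positive CD4 T cells, and after PD1d/IL-2v ACT 1245 UMIs, 0.643% in the ILC2 gate and 67.1% in Foxp3-positive CD4 T cells. Scaled to all UMIs of the non-CD8 cells, this was 633 CPM against 119 CPM.

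In the other libraries ILC2 gate cells were 16 of 1852 (0.864%), 39 of 893 (4.37%) and 28 of 1196 (2.34%) non-CD8 cells after combined ACT at days 5, 12 and 26, and 1 of 1402 (0.0713%), 1 of 154 (0.649%, up to 3.56%) and 0 of 190 after untransduced ACT at days 5 and 12 and without treatment. The interval of the small day 12 untransduced library overlapped those of the libraries with IL-33. The 0 of 190 cells without treatment allow a share of up to 1.58%, which overlaps the interval after PD1d/IL-33 ACT (1.07% to 4.38%). UMIs of 2 or more T cell markers were present in 10 of 16, 23 of 39 and 13 of 28 of the combined ACT gate cells, and whether these were T cells was not tested. The neutrophil gate held 65, 25 and 10 cells in the combined ACT libraries and 6, 0 and 0 in the untransduced and non-treated ones, against 81 after PD1d/IL-2v ACT. The values of the 65 cells of day 5 went against the name of the gate: they had a median of 2655.0 genes and 15.1% of UMIs in ribosomal protein genes, where the gate cells of the other libraries that had any were at 683.0 to 858.5 genes and 1.82% to 2.69%.

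**Figure D2:**
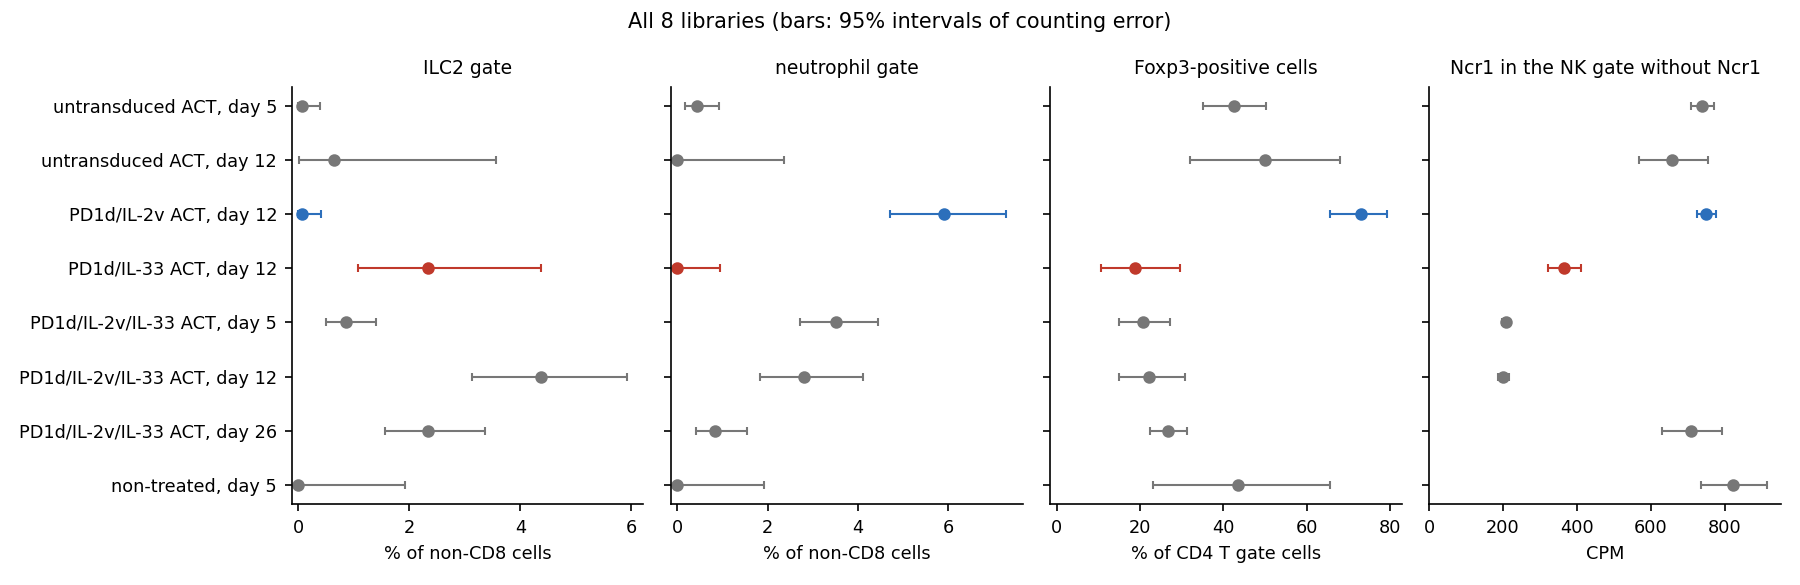
ILC2 gate and neutrophil gate cells (percent of non-CD8 cells), Foxp3-positive cells (percent of CD4 T gate cells) and Ncr1 (CPM in the NK gate without Ncr1) in all 8 libraries, with PD1d/IL-33 ACT in red, PD1d/IL-2v ACT in blue and the others in grey. Bars are 95% intervals of counting error. PD1d/IL-2v ACT has the highest neutrophil and Foxp3-positive shares (5.90% and 73.0%). The Foxp3-positive share after PD1d/IL-33 ACT (18.9%, 10.7 to 29.7) is the lowest, but its interval overlaps those of the combined ACT libraries (20.7%, 22.1% and 26.7% at days 5, 12 and 26).

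CD4 T cells of the 2 conditions differed in their share of regulatory T cells. Foxp3, the lineage factor of regulatory T cells, had a UMI in 14 of 74 CD4 T cells after PD1d/IL-33 ACT, or 18.9% (10.7 to 29.7), and in 127 of 174 after PD1d/IL-2v ACT, or 73.0% (65.7 to 79.4). The ratio was 0.259 (0.160 to 0.419) and became 0.205 (0.0880 to 0.477) after thinning. By 2 or more of the 4 markers Foxp3, Ikzf2, Il2ra and Ctla4, regulatory T cells were 25 (33.8%) against 146 (83.9%). Median depth was 4817.5 against 5498.0 UMIs per CD4 T cell. In the other libraries 74 of 174 (42.5%) and 16 of 32 CD4 T cells were Foxp3-positive after untransduced ACT at days 5 and 12. Without treatment they were 10 of 23 (43.5%), and after combined ACT at days 5, 12 and 26 they were 37 of 179, 25 of 113 and 111 of 415.

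Among 4222 genes with at least 50 UMIs in both libraries together, 180 (4.26%) were at least 2-fold higher (log2 ratio of 1 or more) in CD4 T cells after PD1d/IL-33 ACT and 281 (6.66%) at least 2-fold lower, with a median log2 ratio of -0.16. Of 22 regulatory T cell genes 21 were measured, 14 were 2-fold lower and 0 higher, with a median of -1.45. Foxp3 itself was at 169 CPM (130 to 217) against 479 CPM (441 to 519). Ctla4, which encodes an inhibitory receptor that regulatory T cells carry at high level, was at 582 CPM (506 to 665) against 2771 CPM (2679 to 2865), a log2 ratio of -2.23 (-2.44 to -2.04).

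The same held for several surface receptors of activated regulatory T cells. Ccr8, a chemokine receptor of regulatory T cells in tumors, was at 137 CPM against 554 CPM (log2 ratio -1.94). Tigit, an inhibitory receptor, was at 218 CPM against 841 CPM (-1.90), and Tnfrsf9, which encodes the costimulatory receptor 4-1BB, at 434 CPM against 1486 CPM (-1.75). Izumo1r, the folate receptor 4, was at 106 CPM against 402 CPM (-1.82), and Itgae, the alpha chain of the integrin CD103, at 35.5 CPM against 151 CPM (-1.82). All 5 stayed at least 2-fold lower under every alternative setting except the restriction to Foxp3-positive cells, where Tigit alone did (-1.06).

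Within Foxp3-positive cells, fewer of the regulatory T cell genes were past 2-fold. Of 18 measured (Foxp3, which chose the cells, left out), 1 was 2-fold lower, with a median of -0.51, where 3.87% of 3097 genes were 2-fold higher and 14.3% 2-fold lower in this subset and the median of all genes was -0.21. Il2ra, which encodes CD25, was at 500 CPM (360 to 676) in the 14 cells after PD1d/IL-33 ACT and at 442 CPM (402 to 486) in the 127 cells after PD1d/IL-2v ACT, with an interval of the log2 ratio (0.17) that included 0. Ikzf2, the transcription factor Helios, was at 1535 CPM (1282 to 1824) against 1004 CPM (942 to 1069), a log2 ratio of 0.61 (0.33 to 0.87). In Foxp3-positive cells Ctla4 was still lower, at 1642 CPM (1380 to 1940) against 3057 CPM (2949 to 3169), a log2 ratio of -0.89 (-1.15 to -0.65), and Tigit reached -1.06 (-1.57 to -0.60).

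Granzyme B and PD-1 were also lower within regulatory T cells. Gzmb, the serine protease of cytotoxic granules, was at 238 CPM (145 to 368) against 901 CPM (843 to 963) in Foxp3-positive cells (log2 ratio -1.88, -2.56 to -1.26), with a UMI in 6 of 14 against 80 of 127 cells. Pdcd1, which encodes PD-1, was at 47.6 CPM against 321 CPM, in 3 against 85 cells (-2.52, -3.86 to -1.31). Of 17 measured cell cycle genes 14 were 2-fold lower in these cells, with a median of -1.47, for example Top2a, the topoisomerase of dividing cells, with 1 UMI in 14 cells (11.9 CPM) against 165 CPM. The filter on UMIs sums both libraries, here 84041 against 980914 UMIs, so genes high after PD1d/IL-2v ACT passed more readily. Mki67 and Top2a were found together in 0 of 14 against 17 of 127 cells. The cell cycle genes are therefore not separate observations, and their count gives no separate support. The values in Foxp3-positive cells rest on 14 cells after PD1d/IL-33 ACT, and a single cell held 69.9% of the UMIs of Gm42418, a ribosomal RNA-like gene at 71394 CPM against 13329 CPM.

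Foxp3-negative cells were 60 against 47. They still held regulatory T cell transcripts, with 2 or more of the 4 markers in 11 of 60 (18.3%) against 19 of 47 (40.4%) cells, and 8 of 12 measured regulatory T cell genes were 2-fold lower (median -1.26). In these cells, 103 of 1581 genes (6.51%) were 2-fold higher and 64 (4.05%) 2-fold lower after PD1d/IL-33 ACT. Il1rl1, the receptor of IL-33, had a UMI in 19 of 60 cells, or 31.7% (20.3 to 45.0), against 6 of 47, or 12.8% (4.83 to 25.7), and was at 223 CPM (172 to 286) against 41.5 CPM (20.7 to 74.2). Gata3, the lineage factor of type 2 helper T cells, was at 432 CPM (359 to 516) against 124 CPM (85.6 to 175), a log2 ratio of 1.72 (1.19 to 2.27). Of 16 type 2 helper genes 4 were measured in the Foxp3-negative cells, and all 4 were 2-fold higher, with a median of 1.95 beside -0.11 for all genes. The filter of 50 UMIs sums both libraries, so a gene could pass it through the library where it was high. Il13 had 204 UMIs against 10 and Il1rl1 63 against 11, while Areg had 250 against 112. The count of 4 is therefore not independent of the direction and gives no separate support. Areg had a UMI in 11 of 60 against 11 of 47 of these cells. In the whole CD4 T gate its log2 ratio of 0.50 became -1.07 after thinning and -0.14 with equal weight per cell. The remaining 12 of the type 2 list, Il4 and Il5 among them, had under 50 UMIs in both libraries together.

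Il13 had the largest log2 ratio of any measured gene in the CD4 T gate, at 557 CPM (483 to 639) against 8.02 CPM (3.85 to 14.8), or 4.98 (4.48 to 5.39). Its UMIs came from 8 of 74 cells with 3 to 79 UMIs each (median 5.0), 38.7% of them from 1 cell, against 3 of 174 cells with 2 to 5 UMIs. All 8 cells had Il1rl1 and none had Foxp3, 7 had Gata3, 6 had Il5 and 5 had Calca, which encodes the neuropeptide CGRP. Calca was at 161 CPM against 16.0 CPM in the gate (2.72), in 8 against 5 cells.

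Other genes higher in the CD4 T gate after PD1d/IL-33 ACT included a helper T cell ligand and a protease. Cd40lg, which encodes the CD40 ligand of helper T cells, was at 339 CPM (282 to 404) against 48.1 CPM (36.7 to 62.0), in 38 of 74 against 24 of 174 cells. Within Foxp3-negative cells it was at 436 CPM against 207 CPM (1.04). Furin, a proprotein convertase, was at 292 CPM against 29.7 CPM (2.93) and, in Foxp3-negative cells, at 351 CPM against 45.2 CPM (2.71).

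The heat-shock gene Hspa1b was at 448 CPM against 62.6 CPM (2.66) and the transcriptional cofactor Irf2bp2 at 188 CPM against 32.1 CPM (2.24). Irf2bp2 was not particular to CD4 T cells and was also 2-fold higher in NK (1.46) and myeloid cells (1.37). Ier3, an early response gene, was at 128 CPM against 14.4 CPM (2.50), with 70.2% of its UMIs in 1 cell. Il2 was at 95.6 CPM against 13.6 CPM, but 94.3% of its UMIs came from 1 cell, and its log2 ratio of 2.16 became 0.06 without the cell with the most UMIs in each library. The IL-18 receptor chains, whose genes neighbour Il1rl1 on chromosome 1, were higher as well: Il18rap was at 123 CPM against 25.7 CPM (1.90) and Il18r1 at 137 CPM against 61.8 CPM (1.03).

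Type 1 helper genes did not share one direction. Of 18 in the list 16 were measured in the CD4 T gate, 6 were 2-fold higher and 1 lower, with a median of 0.37. Ifng, the type 1 effector cytokine, was at 167 CPM (127 to 214) against 73.8 CPM (59.5 to 90.5) in the whole gate (1.07) and at 216 CPM (165 to 278) against 264 CPM (206 to 333) in Foxp3-negative cells (-0.28). There, 1 of 12 measured type 1 genes was higher and 3 were lower. Cxcr6, a chemokine receptor of tissue T cells, was 2-fold higher in the whole gate (399 CPM against 145 CPM) and at 475 CPM against 358 CPM (0.40) in Foxp3-negative cells.

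Among 17 inhibitory and costimulatory receptor genes 15 were measured, 7 were 2-fold lower and 2 higher, with a median of -1.0. Lag3, an inhibitory receptor, was at 134 CPM against 404 CPM (-1.53), Tnfrsf4, which encodes OX40, at 519 CPM against 1516 CPM (-1.53), and Cd27, a costimulatory receptor, at 101 CPM against 345 CPM (-1.68). Some members, among them Tigit, Tnfrsf4 and Tnfrsf9, are also in the regulatory T cell list. Within Foxp3-positive cells 4 of 13 measured (30.8%, beside 14.3% of all genes) were 2-fold lower and 0 higher. In Foxp3-negative cells 4 of 12 (33.3%, beside 4.05%) were lower and 1 higher. Of 20 cell cycle genes 18 were measured and 10 were 2-fold lower (median -1.05), while in Foxp3-negative cells 0 of 5 measured were 2-fold changed. The tetraspanin gene Cd81 was at 30.0 CPM (15.0 to 53.7) against 309 CPM (279 to 341), and Ccr7, the homing receptor of naive and central memory T cells, had 0 UMIs against 99.5 CPM in 17 cells, at least 12.1-fold lower by the limit that 3 counts set. That limit takes UMIs as independent, although those of Ccr7 lay in 17 cells. Gzmb, at 131 CPM against 792 CPM (-2.51), was lower in Foxp3-negative cells too (99.2 CPM against 388 CPM).

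Transcripts better known from other cells were also counted in CD4 T cells of the PD1d/IL-2v library. Il1b, Fcer1g and Tyrobp were among the 8 lowest log2 ratios (5.46, 2.73 and 5.46 CPM against 209, 120 and 93.9 CPM). Fcer1g and Tyrobp are not confined to myeloid cells. The study describes Fcer1g as a marker of innate-like TILs. Tyrobp had a UMI in 64 of 68 cells in no gate of that library, of which 46 fell in the NK gate without Ncr1. Il1b had 89.7% of its UMIs in 1 cell of the PD1d/IL-2v library. A UMI of Il1b was present in 14.4% of CD4 T cells and in 18.8% of CD8 cells of that library (median 8325.0 UMIs in CD8 cells), and in 2.70% and 1.57% after PD1d/IL-33 ACT (median 5281.0). The part of free RNA or of cells captured together in these values was not tested. The 10 monocyte or macrophage markers summed to 16.4 CPM against 98.7 CPM in the gate, with 7 of the 10 at 0 after PD1d/IL-33 ACT and 3 at 0 after PD1d/IL-2v ACT. The 8 NK markers summed to 481 CPM against 866 CPM. Ncr1, Klrb1c, Klre1, Eomes and Klra8 were at 0 after PD1d/IL-33 ACT, and all 8 were detected after PD1d/IL-2v ACT.

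**Figure D3:**
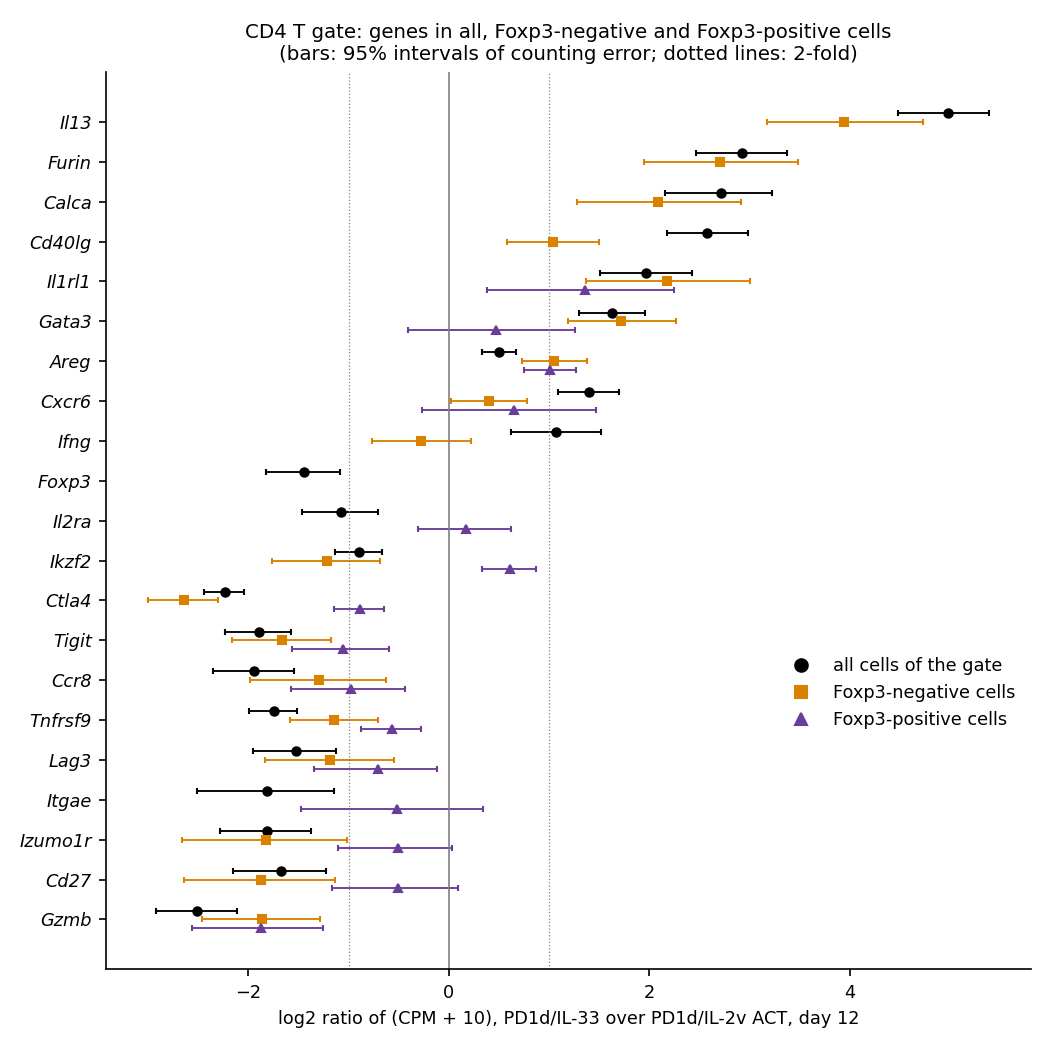
Log2 ratio of CPM plus 10, PD1d/IL-33 over PD1d/IL-2v ACT, for 21 genes of the CD4 T gate, in all cells (black circles), Foxp3-negative cells (orange squares) and Foxp3-positive cells (purple triangles), where at least 50 UMIs were counted. Bars are 95% intervals of counting error and dotted lines mark 2-fold. Il13 at 4.98 is the highest, Gzmb is lower in all 3 groups, and Il2ra and Ikzf2 are below 0 in all cells and above 0 in Foxp3-positive cells. Foxp3 is drawn for all cells only.

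T cells without a Cd4 UMI, 80 against 244 cells with a median of 4047.5 against 5749.0 UMIs, showed some of the same differences. They can include CD4 T cells whose Cd4 went undetected, and Foxp3 had a UMI in 9 of 80 against 43 of 244 cells. The gate is therefore not clearly separate from the CD4 T gate, and the part of such cells was not tested. In this gate 182 of 4723 genes (3.85%) were 2-fold higher and 289 (6.12%) 2-fold lower after PD1d/IL-33 ACT. Il1rl1 had a UMI in 10 of 80 cells, or 12.5%, against 4 of 244, or 1.64%. Gata3 was at 149 CPM (112 to 195) against 58.4 CPM (47.3 to 71.4), a log2 ratio of 1.22 (0.75 to 1.67), and Areg at 423 CPM (358 to 496) against 133 CPM (116 to 152), or 1.59 (1.30 to 1.89), in 12 against 18 cells.

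Cd40lg was at 127 CPM (92.5 to 170) against 11.1 CPM (6.56 to 17.5) in these cells, or 2.70, and Ifng at 166 CPM (127 to 215) against 41.8 CPM (32.5 to 53.0), or 1.77. Gzmb went the other way, at 482 CPM (412 to 560) against 777 CPM (735 to 821), or -0.68. The gate also held markers of other cells: 44 of 80 against 177 of 244 cells carried 2 or more NK markers, and 1 of 80 against 27 of 244 carried 2 or more monocyte or macrophage markers, which summed to 73.3 CPM against 2076 CPM with 7 of 10 at 0 after PD1d/IL-33 ACT. The 5 neutrophil markers summed to 0 CPM against 863 CPM. Their part in these differences was not tested.

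NK cells of the 2 conditions had close levels of the abundant granzyme A and differed in granzyme C. In the Ncr1 gate 181 of 6803 genes (2.66%) were 2-fold higher and 185 (2.72%) 2-fold lower after PD1d/IL-33 ACT, with a median of -0.07. Of 17 granzyme and cytotoxic effector genes 13 were measured, 0 were higher and 2 lower (median -0.31). Gzma, the most abundant granzyme, was at 10271 CPM (9982 to 10567) against 9979 CPM (9879 to 10080), a log2 ratio of 0.04. Gzmb was at 1377 CPM (1273 to 1488) against 1965 CPM (1920 to 2010), or -0.51, and Prf1, the pore-forming perforin, at 501 CPM (439 to 570) against 709 CPM (683 to 737), or -0.49.

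Gzmc, a granzyme of strongly stimulated killer cells, was at 278 CPM (232 to 330) against 1227 CPM (1192 to 1262), a log2 ratio of -2.10 (-2.36 to -1.86), with a UMI in 12 of 102 against 112 of 509 cells. A single cell held 49.6% of its UMIs after PD1d/IL-33 ACT. With the NK gate that does not use Ncr1 it was at 237 CPM against 1152 CPM (-2.24). Over the 8 libraries Gzmc in the Ncr1 gate ranged from 253 CPM without treatment to 2591 CPM after combined ACT at day 12. The other gene 2-fold lower in the list was Gzmd, with 0 UMIs against 32.7 CPM, of which 80.0% came from 1 cell.

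Myc, the growth regulator induced by IL-2 and IL-15, was at 23.7 CPM (11.8 to 42.4) against 142 CPM (130 to 154), in 10 of 102 against 190 of 509 cells (log2 ratio -2.17, -2.81 to -1.53), and was the only one of 21 measured IL-2 receptor and STAT5 response genes past 2-fold. The other 20 lay between -0.91 (Tnfrsf9) and 0.80 (Mcl1), and the median of the list was -0.21. Il2rg, the common gamma chain, was at 377 CPM (323 to 437) against 680 CPM (654 to 706), or -0.83, Il2rb, the beta chain, at 956 CPM (869 to 1049) against 1302 CPM (1266 to 1339), or -0.44, and Tnfrsf9 at 204 CPM (165 to 250) against 394 CPM (374 to 414), or -0.91. With the gate without Ncr1, where 2.50% of 7094 genes were 2-fold higher and 1.58% 2-fold lower, Myc was at 22.6 CPM against 141 CPM (-2.21) and Il2rg at 374 CPM against 672 CPM (-0.83).

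Cycling NK cells, with a UMI of Mki67 or Top2a, were 8 of 102, or 7.84%, against 104 of 509, or 20.4%, a ratio of 0.384 (0.193 to 0.763). With the gate without Ncr1 they were 11 of 157 (7.01%) against 110 of 553 (19.9%). NK cells were shallower after PD1d/IL-33 ACT, with a median of 4228.5 against 6678.0 UMIs. After thinning, 1 of 77 against 23 of 400 remained, and the interval of the ratio of 0.226 (0.0310 to 1.65) then included 1. Of 20 cell cycle genes 19 were measured, 3 were 2-fold lower and 0 higher, with a median of -0.54, for example Rrm2, a ribonucleotide reductase subunit, at 8.61 CPM against 37.5 CPM, and Cdk1, the mitotic kinase, at 4.30 CPM against 24.6 CPM. Both lost the 2-fold difference after thinning (-0.88 and -0.04).

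Few maturation and lectin receptor genes were past 2-fold. Of 14 NK maturation genes 13 were measured and 1 was 2-fold higher, Itgam, the CD11b chain of mature NK cells, at 88.2 CPM (63.3 to 120) against 31.2 CPM (25.8 to 37.3), or 1.25, which became 0.62 after thinning. All 14 lectin receptor genes were measured and 1 was 2-fold higher, Klrb1b, an inhibitory receptor, at 278 CPM (232 to 330) against 71.8 CPM (63.5 to 80.8), or 1.81 (1.70 to 1.94 over the alternatives). Ccl5, the most abundant chemokine, was at 12964 CPM (12638 to 13295) against 11153 CPM (11047 to 11259), or 0.22, and Ifng at 146 CPM (114 to 186) against 168 CPM (156 to 182), or -0.19 (-0.55 to 0.15). Of 11 measured chemokine and cytokine genes 3 were 2-fold lower, Ccl1, Csf2 and Spp1, each with more than 50% of its UMIs in 1 cell of 1 library. For Spp1 that cell was in the PD1d/IL-33 library, and without the cell with the most UMIs in each library its log2 ratio went from -1.98 to -3.53, and with the filter that the study used for a later experiment (400 to 3000 genes and 500 to 12000 UMIs) to -0.80. Il18rap, a chain of the IL-18 receptor, was at 222 CPM against 95.4 CPM (1.14), and Il1rl1 had a UMI in 1 of 102 and 1 of 509 NK cells.

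The genes with the 8 highest log2 ratios in NK cells were, beside Klrb1b, the following. Fosb, a subunit of AP-1, was at 68.9 CPM (47.1 to 97.2) against 7.34 CPM (4.87 to 10.6), or 2.19, Nr4a3, an orphan nuclear receptor, at 187 CPM (150 to 231) against 36.2 CPM (30.4 to 42.7), or 2.10, and Kdm6b, a histone H3K27 demethylase, at 183 CPM (146 to 226) against 36.9 CPM (31.1 to 43.6), or 2.04. Cxcr4, the receptor of CXCL12, was at 396 CPM (341 to 458) against 91.4 CPM (82.1 to 102), in 55 of 102 against 171 of 509 cells (2.00). Vegfa, an angiogenic factor, was at 125 CPM against 19.6 CPM (2.19), Mknk2, a kinase of the translation factor eIF4E, at 230 CPM against 57.1 CPM (1.84), and Erdr1 at 133 CPM against 23.1 CPM (2.12). Erdr1 was not particular to NK cells and was also 2-fold higher in CD4 T (2.00), myeloid (1.48) and CD8 cells (1.56). With the gate without Ncr1 the NK values of these genes differed little, for example 1.88 for Nr4a3 and 1.78 for Cxcr4.

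The 8 lowest log2 ratios in NK cells were those of Ccl1 and of 7 genes better known from myeloid or antigen-presenting cells. Cxcl2, Il1b, S100a8 and S100a9 had 0 UMIs after PD1d/IL-33 ACT and 476, 231, 65.0 and 79.6 CPM after PD1d/IL-2v ACT, with 48.3% to 81.9% of the UMIs in 1 cell. The class II genes H2-Aa, H2-Eb1 and Cd74 were at 2.15, 2.15 and 17.2 CPM against 119, 90.9 and 265 CPM, with 54.4% to 64.8% in 1 cell. With the NK gate without Ncr1 they were at 213, 165 and 592 CPM against 276, 229 and 584 CPM (-0.36, -0.45 and 0.02). There a single cell held 98.0%, 99.1% and 96.7% of their UMIs after PD1d/IL-33 ACT. Cxcl2, S100a8 and S100a9 stayed at 0 UMIs in that library, and Il1b was at 7.05 CPM against 109 CPM. In the Ncr1 gate, S100a8 had a UMI in 9.82% of NK cells after PD1d/IL-2v ACT, against 12.6% of CD8 cells, and Cd74 in 23.2% and 30.0%. The part of free RNA or of cells captured together in these values was not tested. Neutrophil markers summed to 2.15 CPM against 151 CPM in the NK gate and macrophage markers to 12.9 CPM against 143 CPM, with 4 of 5 and 7 of 10 markers at 0 after PD1d/IL-33 ACT.

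**Figure D4:**
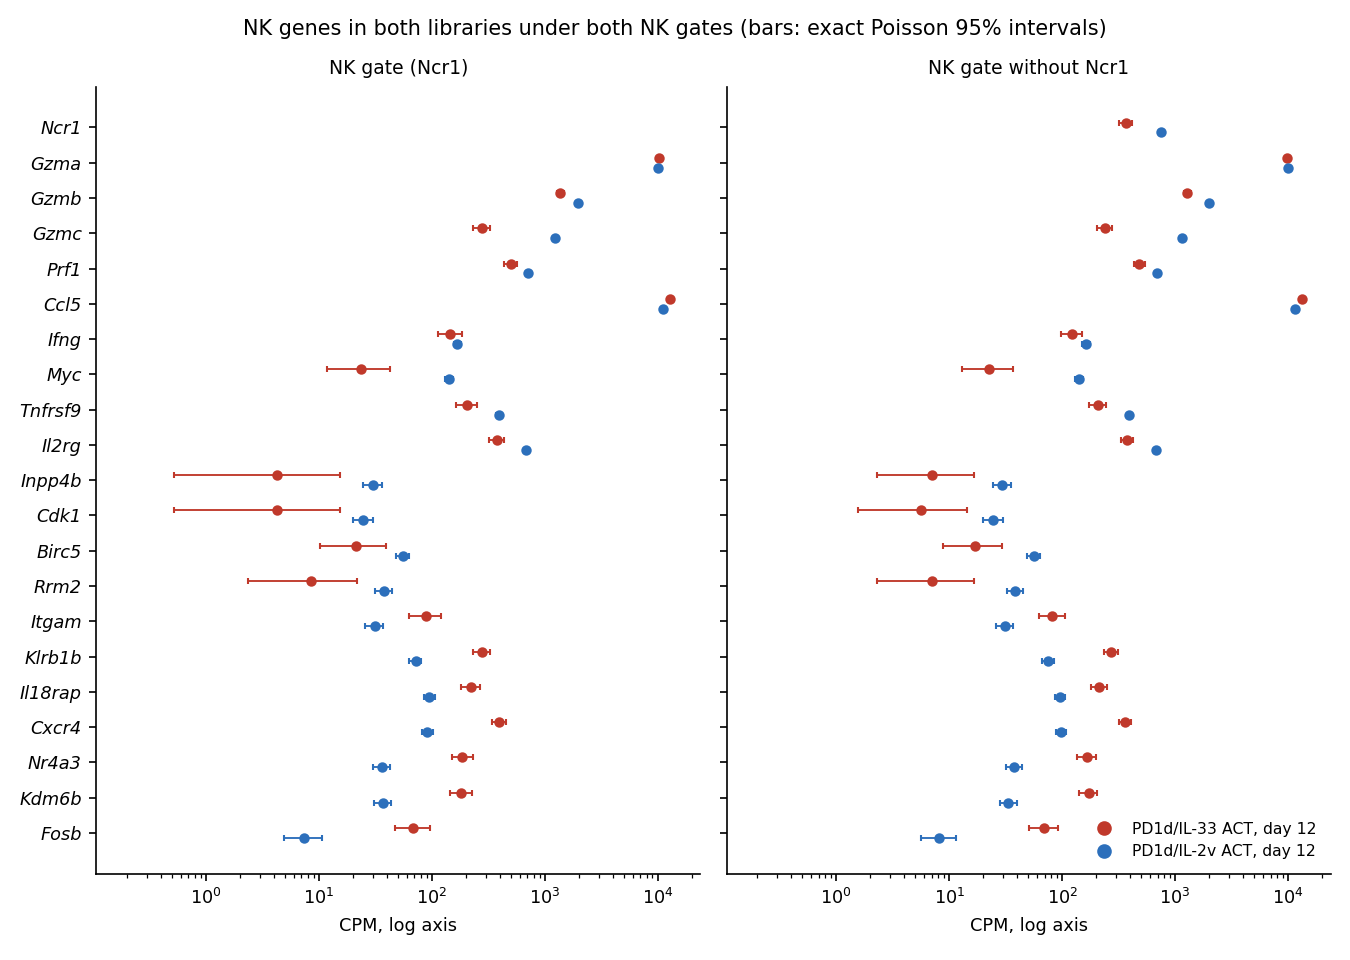
CPM, on a log axis, of 21 genes in NK cells gated by Ncr1 (left, Ncr1 itself left out) and by other NK genes (right), for PD1d/IL-33 ACT (red) and PD1d/IL-2v ACT (blue) at day 12. Bars are exact Poisson 95% intervals. Gzma and Ccl5 nearly coincide under both gates, Gzmc and Myc are lower after PD1d/IL-33 ACT, and Cxcr4, Nr4a3, Kdm6b and Fosb are higher.

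Myeloid cells differed in their inflammatory genes. In the myeloid gate, 33 against 298 cells with a median of 4766.0 against 9387.0 UMIs, 287 of 5388 genes (5.33%) were 2-fold higher and 385 (7.15%) 2-fold lower after PD1d/IL-33 ACT, with a median of 0.04. TMM scaling moved the median to -0.19 and the counts to 158 and 596. Of 21 chemokine genes 17 were measured, 13 were 2-fold lower and 0 higher (median -1.61), and of 22 inflammatory and hypoxia genes 20 were measured, 13 were lower and 0 higher (median -1.37). The filter on UMIs sums both libraries, here 199061 UMIs after PD1d/IL-33 ACT and 2876556 after PD1d/IL-2v ACT. Genes high only after PD1d/IL-33 ACT thus passed less readily. The list counts, here and in the subsets below, are therefore not independent of the direction, and the 0 higher gives no separate support. The 5 neutrophil markers summed to 80.4 CPM against 7234 CPM in the gate, with S100a8, Retnlg and Cxcr2 at 0 after PD1d/IL-33 ACT. Without the cells of the neutrophil gate, which were 28 of the 298 cells after PD1d/IL-2v ACT and 0 of 33, 13 of 17 and 13 of 20 were lower again, where 5.18% of 5158 genes were 2-fold higher and 7.29% 2-fold lower. In C1q-low cells, where 6.07% of 4776 genes were higher and 7.29% lower, 10 of 14 and 14 of 20 were lower.

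Cxcl2, a ligand of CXCR2 that attracts neutrophils, was at 603 CPM (500 to 721) against 4970 CPM (4889 to 5052), in 8 of 33 against 155 of 298 cells, a log2 ratio of -3.02 (-3.29 to -2.77). Cxcl3, a related ligand, had 0 UMIs in 33 cells against 423 CPM in 31 of 298 cells, at least 28.0-fold lower by the limit of 3 counts. This limit, here and for the myeloid genes below, takes UMIs as independent. Where the UMIs lie in few cells, as here, the bound is too strict, and the shares of cells were not compared. Ccl4, an inflammatory chemokine, was at 412 CPM (328 to 511) against 2700 CPM (2640 to 2760), or -2.68, and Ccl3, another inflammatory chemokine, at 417 CPM (332 to 517) against 1384 CPM (1341 to 1428), or -1.71. Ccl2, which attracts monocytes, was level at 502 CPM against 496 CPM (0.02), and Ccl9 was at 432 CPM against 243 CPM (0.81).

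Cytokines of the IL-1 and TNF families were lower too. Il1b was at 1869 CPM (1684 to 2069) against 7553 CPM (7453 to 7654), in 25 of 33 against 276 of 298 cells (-2.01, -2.16 to -1.86), and Il1a had 0 UMIs against 391 CPM, at least 26.0-fold lower. Tnf was at 40.2 CPM (17.4 to 79.2) against 247 CPM (229 to 266), or -2.36, and Ptgs2, the inducible cyclooxygenase, at 377 CPM (296 to 472) against 1160 CPM (1121 to 1200), or -1.60. Il1r2, the decoy receptor of IL-1, was at 10.0 CPM against 121 CPM (-2.71). Il1rl1 had no UMI in the myeloid cells of either library.

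Nos2 and Arg1, the 2 arginine-consuming enzymes of macrophages, which are often read as markers of classical and alternative activation, were both lower after PD1d/IL-33 ACT. Nos2 had 0 UMIs in 33 cells against 97.0 CPM (85.9 to 109) in 35 of 298 cells, at least 6.44-fold lower, and Arg1 had 1 UMI (5.02 CPM, 0.127 to 28.0) against 138 CPM (125 to 152) in 19 cells (-3.30, -3.87 to -1.95). The bound of Nos2 and the interval of Arg1 take UMIs as independent, although they lay in these few cells. Spp1, which encodes osteopontin, had 0 UMIs against 348 CPM in 48 cells, at least 23.1-fold lower. Of 26 genes of the response to IL-4 and IL-13, 14 were measured, 4 were 2-fold lower and 1 higher (median -0.31). The 1 higher gene was Mgl2, a C-type lectin, with 94.1% of its UMIs in 1 cell, and its log2 ratio of 2.02 became -0.39 without that cell.

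Acute-phase and neutrophil transcripts gave the lowest ratios. S100a8, a calcium-binding protein of neutrophils and monocytes, had 0 UMIs against 3373 CPM (3306 to 3441) in 97 of 298 cells, at least 224-fold lower. Without the neutrophil gate cells, which were chosen by both genes, the log2 ratio of S100a8 was -4.73 and that of S100a9, its partner, went from -7.82 to -1.49. Saa3, an acute-phase apolipoprotein, was at 5.02 CPM (0.127 to 28.0) against 1258 CPM (1218 to 1300), in 1 against 40 cells (-6.40). Over the other 6 libraries Saa3 in the myeloid gate was at 0 to 43.1 CPM, so its level after PD1d/IL-2v ACT stood apart from all of them. Retnlg, a neutrophil gene, went from a log2 ratio of -5.26 to -0.30 without the neutrophil gate cells. Retnlg is also among the genes that choose those cells, so this change follows in part from the gate.

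Some macrophage and monocyte genes were past 2-fold. Of 20 macrophage genes 17 were measured, 6 were 2-fold lower and 1 higher (median -0.85), and of 18 monocyte genes 17 were measured, 3 were lower and 1 higher (median -0.28). C1qb, a complement component of tissue macrophages, was at 80.4 CPM (45.9 to 131) against 515 CPM (489 to 542), or -2.54, in 3 against 50 cells. In C1q-low cells, 2 of 12 measured macrophage genes were 2-fold lower (median -0.53). Macrophages with at least 5 UMIs of C1qa, C1qb and C1qc together were 3 of 33 myeloid cells, or 9.09% (1.92 to 24.3), against 42 of 298, or 14.1% (10.4 to 18.6), and the ratio of 0.645 (0.212 to 1.97) included 1. Ly6c2, the marker of inflammatory monocytes, was at 995 CPM (861 to 1143) against 1117 CPM (1079 to 1157), or -0.17, whereas Treml4, a receptor of nonclassical monocytes, was at 10.0 CPM (1.22 to 36.3) against 173 CPM (158 to 189), in 2 of 33 against 149 of 298 cells (-3.19). S100a4, a calcium-binding protein of motile cells, was the monocyte gene that was higher, at 1331 CPM (1176 to 1502) against 371 CPM (349 to 394), or 1.82.

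Interferon genes were lower in part and antigen presentation genes hardly. Of 20 genes of the type I interferon response 18 were measured and 8 were 2-fold lower (median -0.84). Isg15, a ubiquitin-like protein induced by interferon, was at 296 CPM (226 to 382) against 773 CPM (741 to 806), or -1.35, and Ifit3 had 0 UMIs against 40.3 CPM in 60 cells, at least 2.68-fold lower. Of 26 genes of the interferon-gamma response 23 were measured and 6 were 2-fold lower (median -0.47). Cxcl9, a chemokine induced by interferon-gamma that attracts T cells, was at 502 CPM (409 to 611) against 835 CPM (802 to 869), or -0.72, with a UMI in 9 of 33 and 73 of 298 cells. Cd274, which encodes PD-L1, was at 146 CPM (97.6 to 209) against 374 CPM (352 to 397), or -1.30, and became -0.74 after thinning. Irf8, a lineage factor of monocytes and dendritic cells, was at 603 CPM against 346 CPM (0.78).

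Of 11 class II genes 9 were measured, and all 9 lay within 2-fold (median -0.20, and 0.20 over 7 genes in C1q-low cells), for example H2-Aa at 3014 CPM (2778 to 3265) against 3726 CPM (3655 to 3797), or -0.30, and of 16 class I genes 2 were 2-fold lower (median -0.25). Of 19 genes of scavenging, complement and lipid handling 16 were measured and 9 were lower (median -1.04), among them Fabp4, a fatty acid-binding protein, at 5.02 CPM against 51.8 CPM (-2.04). Markers of conventional dendritic cells summed to 271 CPM against 153 CPM in the myeloid gate, and their part in the class II values was not tested. The highest ratio belonged to Chpt1, a choline phosphotransferase, at 693 CPM (582 to 819) against 127 CPM (114 to 140), or 2.36, which was also 2-fold higher in NK, CD4 T and CD8 cells.

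**Figure D5:**
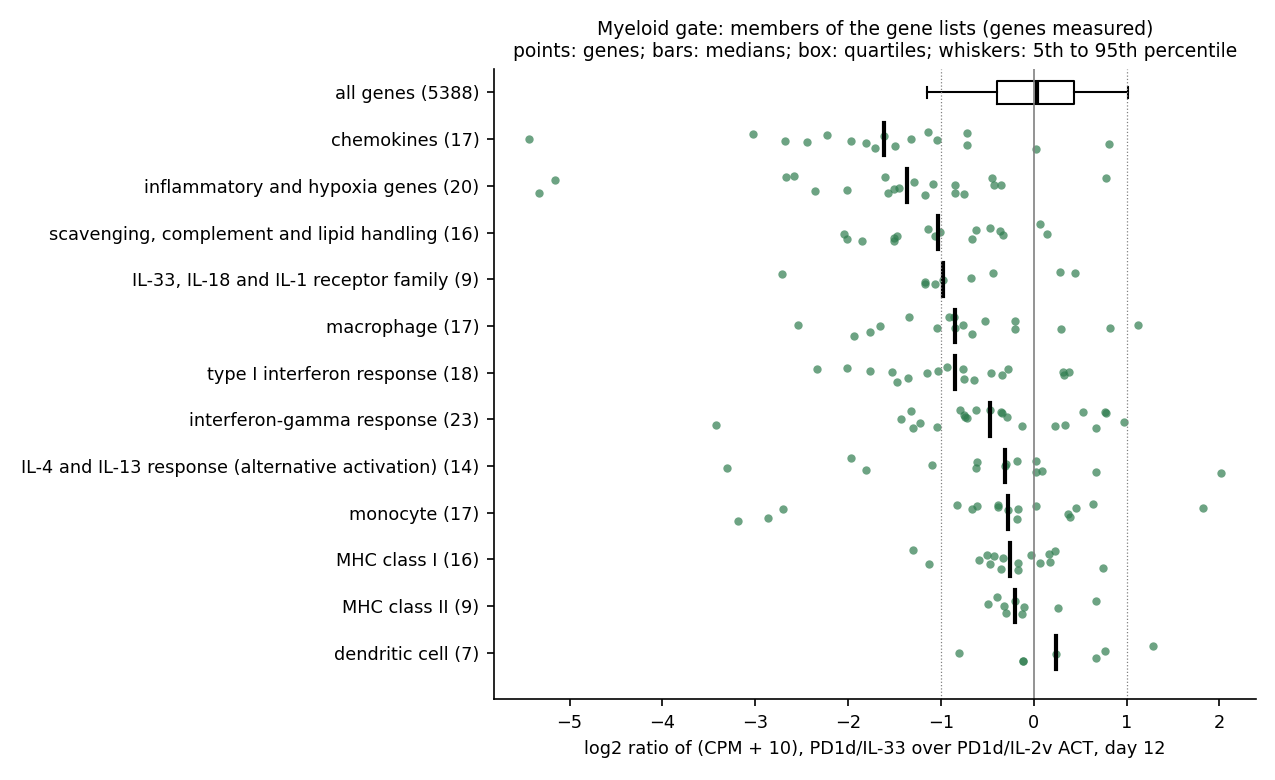
Log2 ratio of CPM plus 10, PD1d/IL-33 over PD1d/IL-2v ACT, for each measured gene (points) of 12 gene lists in the myeloid gate, with list medians (black bars) and the number of genes measured in brackets. The box gives the quartiles and the 5th to 95th percentile of all 5388 genes, and dotted lines mark 2-fold. The medians run from -1.61 for chemokines to 0.24 for dendritic cell genes, around 0.04 for all genes.

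Among the 14 and 57 cells of the Xcr1, Clec9a, Wdfy4 and Naaa gate, 104 of 2318 genes (4.49%) were 2-fold higher and 414 (17.9%) 2-fold lower after PD1d/IL-33 ACT. H2-Ab1, a class II chain, was at 7947 CPM (7466 to 8451) against 5214 CPM (5052 to 5381), and C1qb was at 15.7 CPM against 559 CPM. The monocyte or macrophage markers summed to 2302 CPM against 11730 CPM in this gate, with Ms4a7 at 0 after PD1d/IL-33 ACT, so these differences were taken between cells of unlike makeup.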

How the data were processed

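CD45+ cells sorted from B16-OVA tumors were profiled with 10x 5′ chemistry. Per the labels, the authors made the deposited UMI count matrix with Cell Ranger 2.2.0 on GRCm38, aggregating 8 libraries. Whether aggregation lowered the counts of deeper libraries is not given in the sources used here. A UMI counts molecules, not reads, and the deposited values are unnormalized whole-number counts per gene and barcode. Each barcode was assigned to its library by its suffix and the aggregation order.

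The filters and gates are given with the results. The members and gene lists were chosen with earlier results of these data known. UMIs were summed per gate and library, scaled to CPM and compared as log2 ratios of CPM plus 10, for genes with at least 50 UMIs in both libraries together, leaving out genes used by the gate. In gates where the PD1d/IL-2v library held more UMIs, genes high in it passed this filter more readily. Counts of list genes higher or lower in those gates are therefore not independent of the direction. With 1 library per condition no count model or test was run, and a gene was called at a ratio of 2-fold. Intervals of CPM are exact Poisson, those of shares exact Clopper-Pearson, those of share ratios on the log scale, and those of log2 ratios from the exact binomial split of the UMIs. A count of 0 was given a limit of 3 counts. The limits and intervals of expression take UMIs as independent and are too narrow for genes whose UMIs lie in few cells. Named genes were the 8 highest and 8 lowest log2 ratios of each gate, the members of each list furthest from 0, up to 5 in each direction, and 16 genes named for their role, with other genes chosen after their values were seen, among them Ncr1, Klre1, Cd3d, Ikzf2, Mcl1 and Gm42418.

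Scrublet called 3 of 768 and 2 of 2033 cells doublets, too few to count as a working call, so cells were kept, and an alternative left out the 6% with the highest scores. Other alternatives changed cell filters, thinning, pseudocount, gene filter, scaling (edgeR 4.0.16 TMM factors), the denominator and the gates. The counting and ratio steps were tested on simulated data. Analyses used Python 3.11.15, numpy 2.4.6, scipy 1.17.1, pandas 2.3.3 and scanpy 1.11.5.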

Additional observations from a re-analysis of the deposited data

Results flagged for a closer look

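With 1 library per condition no sample could be compared with others of its group. The results here are some of the genes whose log2 ratio of CPM plus 10 (PD1d/IL-33 over PD1d/IL-2v ACT) passed 2-fold in opposite directions in different cell gates. They were kept because they were already among the named genes and are not the full set. Others did the same, among them Bcl2a1b, Hspa1a, Lgals3 and Tnfaip3, and the share over all measured genes was not computed. The difference between the gates was not tested for any gene. Bhlhe40, a transcription factor of activated lymphocytes, was higher in CD4 T cells (1.04, 647 CPM against 309 CPM) and lower in myeloid cells (-1.49, 95.4 CPM against 286 CPM). Cd81 was lower in CD4 T cells (-2.99, 30.0 CPM against 309 CPM) and higher in myeloid cells (1.21, 85.4 CPM against 31.3 CPM). Ier3 was higher in CD4 T cells (2.50, 128 CPM against 14.4 CPM), lower in myeloid cells (-2.05, 507 CPM against 2139 CPM) and lower in NK cells (-2.52, 0 CPM against 47.4 CPM). Ccl1, a chemokine ligand of CCR8, was lower in NK cells (-3.42, 2.15 CPM against 120 CPM) and higher in CD4 T cells (1.80, 126 CPM against 28.9 CPM). As given elsewhere, most UMIs of Ccl1 in NK cells and of Ier3 in CD4 T cells came from 1 cell. The Ccl1 difference in NK cells was lost with the filter of the later experiment, and Ier3 turned direction in Foxp3-positive cells.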

How the results depend on the processing

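No paired analysis was possible because each condition has 1 library, and for the same reason no replicate could be left out. The 12 shares and gene counts gave 110 values under the settings listed at the outset, of which 86 stayed within the bounds set for them, 24 moved and 0 with an interval apart from 1 turned direction, and 26 under the 5 settings added after seeing the data, of which 20 stayed, 5 moved and 1 turned: the NK share ratio became 1.01 with the gate without Ncr1, under which 112 genes were 2-fold lower. The ratio of C1q-positive shares, whose interval included 1, went from 0.645 to 1.19 with the filter of the later experiment. With all passing cells as the denominator the NK ratio by the Ncr1 gate was 0.530 and the CD4 T ratio 1.13. With cells of 500 or more UMIs the myeloid ratio was 0.279.

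Counts of genes 2-fold higher and lower moved under the following settings. Thinning to 2000 UMIs gave 93 higher in NK cells, 54 and 89 (higher and lower) in CD4 T cells and 106 and 227 in myeloid cells. A pseudocount of 1 CPM gave 373 and 520 in NK cells, 431 lower in CD4 T cells and 480 and 593 in myeloid cells. Without a filter on low counts there were 408 and 527 in CD4 T cells and 559 higher in myeloid cells, and with at least 10 UMIs 367 and 527, and 509. TMM factors gave 158 and 596 in myeloid cells. Without the cell with the most UMIs of each gene there were 310 lower in NK cells and 136 and 738 in myeloid cells. That setting took 1 cell per gene from each library, out of 102 against 509 NK cells and 33 against 298 myeloid cells. It thus took a larger part from the PD1d/IL-33 library and tended to lower the ratios by construction. C1q-positive cells gave 170 higher, Foxp3-positive cells 443 lower and Foxp3-negative cells 103 and 64.

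The 129 named gene results gave 1938 log2 ratios, without those of genes that chose a subset of cells. Of the results past 2-fold 17 values turned direction, and the cause was not tested. With the filter of the later experiment (400 to 3000 genes, 500 to 12000 UMIs) they were Ccl1 (0.01) and Csf2 (0.38) in NK cells and Mgl2 (-0.36) in myeloid cells. After thinning Il2 was at -1.06 in CD4 T cells, without cycling cells Birc5 at 0.32 in NK cells, and with the NK gate without Ncr1 Cd74 at 0.02. Mgl2 was at -0.39 without its highest cell and at -2.29 in C1q-positive cells. In Foxp3-positive cells Il2ra (0.17), Calca (-0.94), Hspa1b (-1.21), Ier3 (-1.34), Il18rap (-0.21), Ifng (-1.70) and Bhlhe40 (-0.24) turned, and in Foxp3-negative cells Ifng (-0.28) and Rrm2 (0.66). Of the results within 2-fold 16 values of 7 changed sign, those of Gzma and Ccl5 in NK cells, Areg (-1.07 after thinning) and Ikzf2 (0.61 in Foxp3-positive cells) in CD4 T cells, and Irf8, Cxcl9 and H2-Aa in myeloid cells. Depth limits the values from 33 myeloid cells and 14 Foxp3-positive cells after PD1d/IL-33 ACT, where 1 UMI was worth 5.02 CPM in the myeloid gate.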

Other observations

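Some genes differed in the same direction in every gate. Of 3607 genes measured in NK, CD4 T and myeloid cells alike, 42 were at least 2-fold higher in all 3 after PD1d/IL-33 ACT and 7 at least 2-fold lower. Of the 42 genes, 26 were predicted genes or pseudogenes and 33 were also 2-fold higher in the CD8 cells of the same libraries, for example Adrbk1, a kinase of G protein-coupled receptors, at 207 CPM against 67.1 CPM in NK cells, 208 CPM against 79.4 CPM in CD4 T cells and 296 CPM against 88.6 CPM in myeloid cells. The 7 lower genes were Capg, Ccrl2, Cxcl2, Ddit4, Il1b, Il1r2 and Pgm2, of which 6 were also 2-fold lower in CD8 cells. The share of predicted genes or pseudogenes among the 3607 genes was not computed. Nor were the shares of all genes 2-fold higher or lower in CD8 cells. The counts of 26, 33 and 6 therefore have no base rate to be compared with. In CD4 T cells after PD1d/IL-2v ACT, most UMIs of Il1b lay in a single cell. In NK cells of that library, Cxcl2 and Il1b each had a large part of their UMIs in a single cell.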
